A study of Mus musculus with 9 samples.

Results

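DNA replication and S-phase genes were followed in aortic valve explants from newborn mice that were cultured with all-trans retinoic acid (ATRA), with the retinoic acid receptor antagonist LE540 or with the vehicle DMSO. The set holds 40 genes chosen by symbol for their function, of 19934 genes with a probe set that the platform annotation pairs with 1 symbol. All 40 were measured, by 42 of 23397 tested probe sets, and the second probe sets belong to Pcna and Tk1. The Entrez identifiers of all 40 matched the same symbols in RefSeq.

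The explants came from C57BL/6J pups at postnatal day 1, and each sample was a pool of the valves of 5 to 6 pups, kept on floating filters in serum-containing medium. Per the labels, 3 pools received 1 µmol/L ATRA in DMSO, 3 received LE540, and 3 received DMSO alone at a final 0.001%, each for 48 hours. The dose and solvent of LE540 and the sex of the pups are not given in the labels. Each pool was hybridised to its own Affymetrix array, and values are RMA intensities on a linear scale. A probe set passed when limma's two-sided test gave a Benjamini-Hochberg adjusted p under 0.1 over all 23397 probe sets. Changes are differences of log2 intensity, with a standard error (SE) from that model, over 3 arrays per group, and arrays are named by group and replicate number.

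Before S phase, Cdc6 and Cdt1 load the MCM ring, the core of the replicative helicase, onto origins of replication. In S phase Cdc45 and the GINS complex turn the ring into an active helicase, primase and the DNA polymerases copy the strands behind the sliding clamp Pcna, and nucleases and a ligase join the Okazaki fragments of the lagging strand. Cyclin E and E2F transcription factors drive entry into this phase, and many of the genes are E2F targets, so that their RNA is abundant in cycling cells and scarce in resting ones. Neonatal valves still hold dividing interstitial cells.

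All 10 valve interstitial markers lay above the lower quartile of intensity on at least 1 array. This was also so for every measured marker of the other cell types, so it does not set valve tissue apart from them. The summed intensity of the valve interstitial markers was 22091 to 25385 on ATRA arrays, 10520 to 18568 on LE540 arrays and 14739 to 20674 on DMSO arrays. Correlations between arrays were 0.956 to 0.991. Array LE540 1 stood apart on the first principal component, which held 32.5% of the variance. The arrays numbered 2 stood apart for the replication genes. The highest of the 9 values was on an array numbered 2 for 32 of the 40 genes, and on LE540 1 or LE540 3 the lowest for 31. Array 2 was the highest of its own group for 29 genes with ATRA, 33 with LE540 and 32 with DMSO, against 30.1%, 26.7% and 35.0% of all probe sets. It was so in all 3 groups at once for 23 of the 40 genes, against 7.03% of all probe sets. A score of 3 Y-linked genes, which are expressed in male tissue only, was the lowest of its group on each array numbered 2. This score (mean centred log2 intensity) was 1.33, -0.03 and 1.35 with ATRA, 1.04, -1.52 and 1.25 with LE540, and -1.08, -2.50 and 0.16 with DMSO. The labels do not say what a replicate number stands for.

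No replication gene passed the test in any comparison. Cdc6, Mcm10, Gins3, Rfc1 and Prim1 lay lower with either compound than with DMSO on all arrays, by log2 changes of up to -0.79 with ATRA and -1.13 with LE540, both in Prim1. Counted singly, 9 of 40 genes lay so with ATRA, against 6.34% of all probe sets, and 10 with LE540, against 5.86%. The share of all probe sets for both at once was not counted, and both comparisons use the same DMSO arrays. Rrm1 and Ccne1 were at -1.07 and -0.63 with LE540 and at -0.06 and -0.08 with ATRA. E2f1 alone stood higher with ATRA than in both other groups on every array, at 0.33 against DMSO. All ATRA arrays lay above all DMSO arrays for 4.97% of all probe sets, and above all LE540 arrays for 5.24%. Across the set, the median difference from DMSO was negative for both compounds, at -0.19 with ATRA and -0.32 with LE540. It was 0.18 with ATRA and -0.02 with LE540 when a score of Y-linked genes was a covariate. That score averaged 0.88 with ATRA, 0.26 with LE540 and -1.14 with DMSO, so this fit cannot cleanly separate it from treatment. Without array DMSO 2, which both comparisons share, the median was -0.04 with ATRA and -0.21 with LE540. In pooled tissue, fewer cycling cells and less of these RNAs per cell cannot be told apart.

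**Figure D1:**
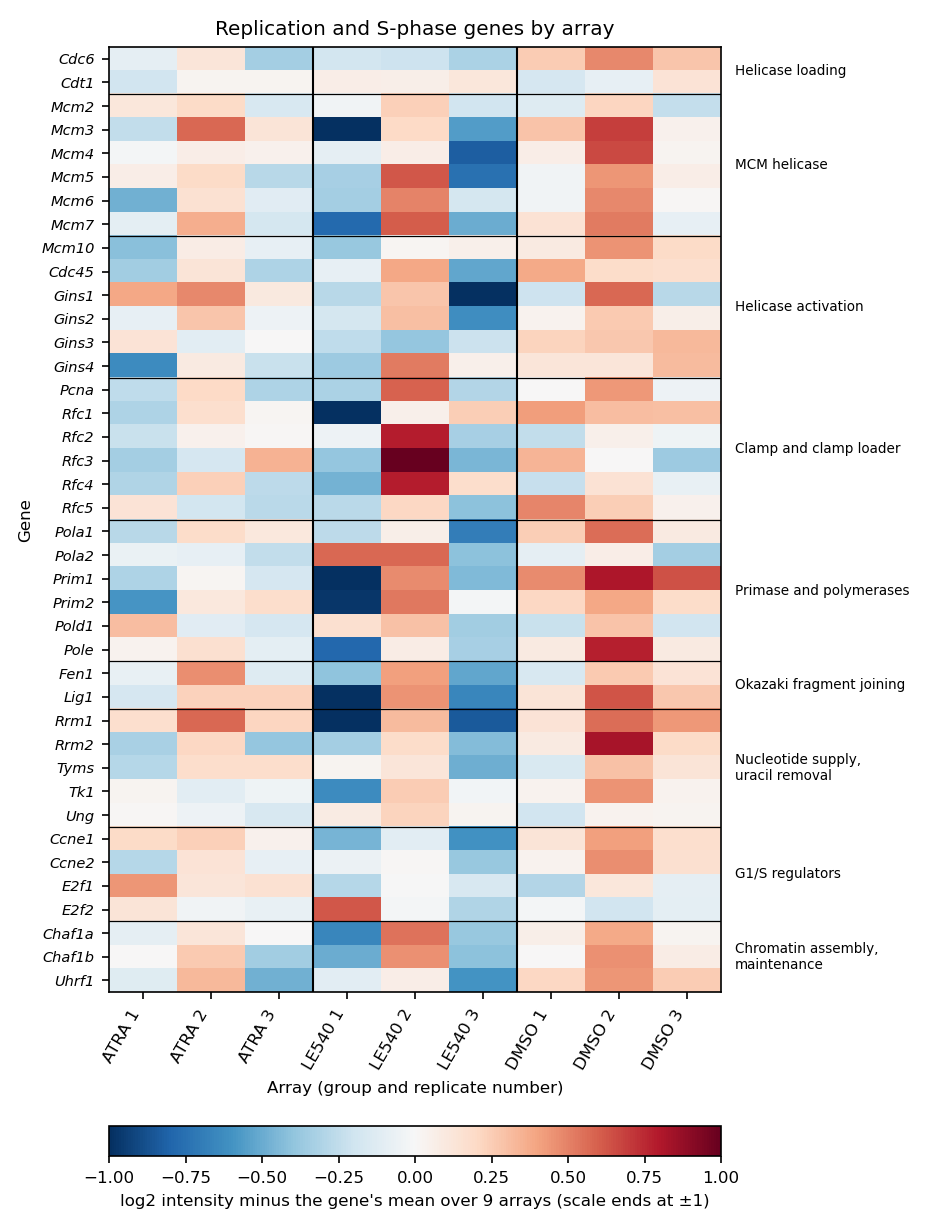
Log2 intensity of each of the 40 genes (rows, grouped by role) on each of the 9 arrays (columns), minus that gene's mean over the 9 arrays; blue is lower, red is higher, and the scale ends at ±1. The columns LE540 1 and LE540 3 are mostly blue, the columns LE540 2 and DMSO 2 mostly red.

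The mean over the 40 genes of the log2 value minus each gene's mean summarised each array. This score was -0.11, 0.15 and -0.08 on the ATRA arrays, -0.38, 0.29 and -0.36 on the LE540 arrays, and 0.06, 0.36 and 0.08 on the DMSO arrays. ATRA 2 and LE540 2 lay above DMSO 1 and DMSO 3, so neither treated group was separated from DMSO. The group means were -0.01 ± 0.14 with ATRA, -0.15 ± 0.38 with LE540 and 0.17 ± 0.17 with DMSO (SD, n = 3 each). The LE540 arrays were the most scattered: the median SD of a replication gene (log2) was 0.23 with ATRA, 0.46 with LE540 and 0.22 with DMSO, and LE540 had the largest SD of the 3 groups for 30 of 40 genes, against 51.4% of all probe sets.

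**Figure D2:**
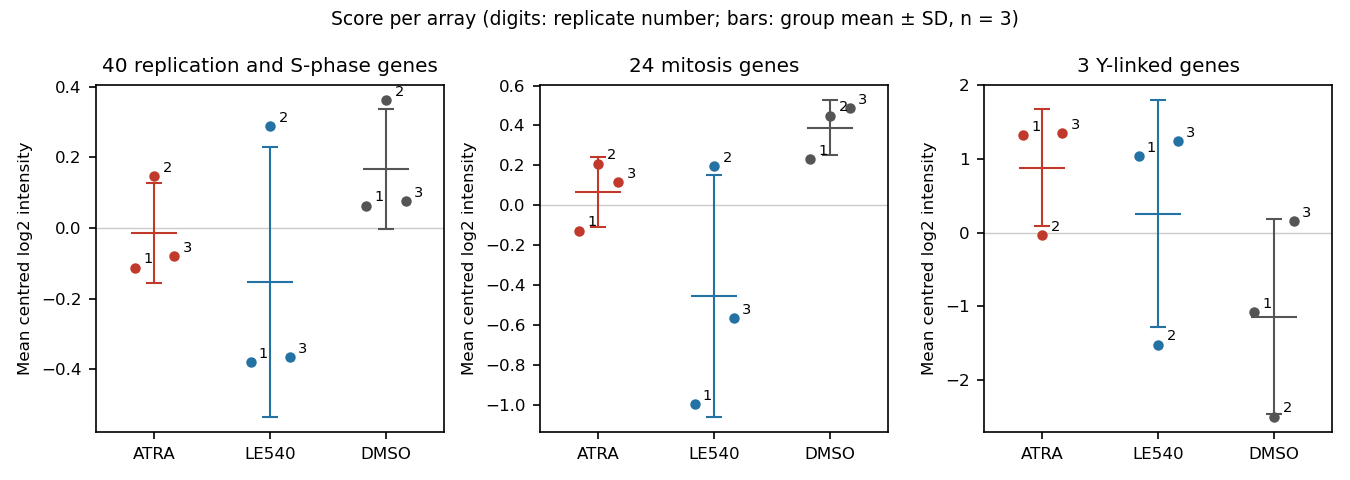
Score of each array (mean centred log2 intensity, vertical axis) for the 40 replication genes, 24 mitosis genes and 3 Y-linked genes; digits are replicate numbers and bars are the group mean ± SD of 3 arrays. LE540 1 and LE540 3 lie lowest in the first 2 panels, and the arrays numbered 2 lie lowest of their groups in the Y-linked panel.

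ATRA was set against DMSO to ask what the added retinoid does to this gene set. Of the 40 genes, 33 were lower by any amount with ATRA, against 51.5% of all probe sets. Their median log2 change was -0.19, against -0.01 over all probe sets, and the single values ran from -0.79 for Prim1 to 0.33 for E2f1. None of the 40 passed, against 0.0812% of all probe sets, and the lowest adjusted p was 0.787. At an unadjusted p under 0.05, Cdc6 and Gins3 were lower, against 2.36% of all probe sets, and E2f1 was higher, against 2.34%. All ATRA arrays were below all DMSO arrays for 9 genes, against 6.34% of all probe sets: Cdc6, Mcm10, Cdc45, Gins3, Gins4, Rfc1, Prim1, Prim2 and Tk1. The second Tk1 probe set, at -0.24, did overlap. E2f1 was the 1 gene with all ATRA arrays above, against 4.97%.

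Arrays of the same number deviated together in this comparison, so they were also compared as pairs. The score difference was -0.18, -0.21 and -0.15 in pairs 1, 2 and 3. In all 3 pairs 20 of 40 genes were lower with ATRA, against 16.2% of all probe sets. With the replicate number as a block, 9 genes had an unadjusted p under 0.05 and were lower, against 3.4% of all probe sets: Cdc6, Mcm6, Mcm10, Gins3, Gins4, Prim1, Rrm2, Ccne2 and Uhrf1. The lowest adjusted p in that fit was 0.242, for Rrm2, and none passed. E2f1 no longer had an unadjusted p under 0.05 with the block (adjusted p = 0.799), so 0 genes were higher at that p.

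The direction depended on how the Y-linked score was treated. With it as a covariate, 12 of 40 genes were lower with ATRA, against 54.8% of all probe sets, and the median became 0.18. At an unadjusted p under 0.05, 1 gene was then lower and 4 were higher, against 3.05% and 3.26% of all probe sets. Without the arrays numbered 2, an alternative chosen after the data were seen, the median was -0.13, and 5 genes were lower at an unadjusted p under 0.05, against 2.04% of all probe sets. Without DMSO 2 alone the median was -0.04.

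**Figure D3:**
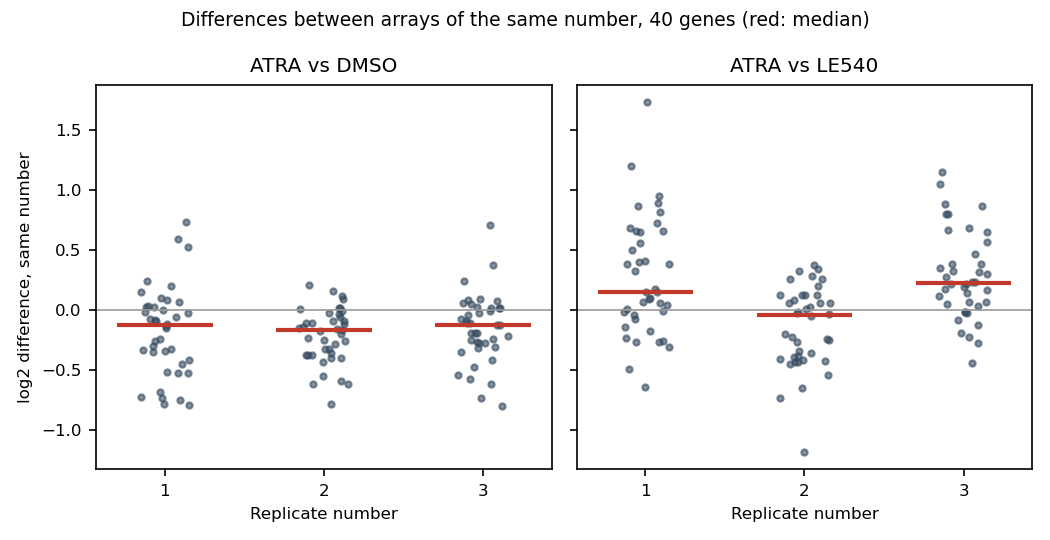
Log2 difference between arrays of the same replicate number (vertical axis) for the 40 genes, by replicate number (horizontal axis), with the median in red. ATRA minus DMSO has medians of -0.13, -0.17 and -0.13; ATRA minus LE540 has 0.15, -0.04 and 0.23.

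LE540 was set against DMSO to ask what blocking the receptors does, with the same DMSO arrays as in the comparison above. With LE540, 31 of 40 genes were lower by any amount, against 45.3% of all probe sets. The median log2 change was -0.32, against 0.02 over all probe sets, with a range from -1.13 for Prim1 to 0.37 for Pola2. None passed, against 0.0299% of all probe sets, and the lowest adjusted p was 0.227, for Gins3. At an unadjusted p under 0.05, 8 genes were lower, against 4.33% of all probe sets: Cdc6, Mcm3, Gins3, Pola1, Prim1, Pole, Rrm1 and Ccne1. At that p none was higher by limma, against 4.47%. All LE540 arrays were below all DMSO arrays for 10 genes, against 5.86% of all probe sets: Cdc6, Mcm10, Gins3, Rfc1, Pola1, Prim1, Pole, Ccne1, Ccne2 and Uhrf1. For 0 genes were all of them above, against 6.74%.

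LE540 2, whose score of 0.29 lay far from those of LE540 1 and LE540 3, was close to DMSO 2 at 0.36. By replicate number the score difference was -0.44, -0.07 and -0.44 in pairs 1, 2 and 3. In all 3 pairs 18 of 40 genes were lower with LE540, against 14.1% of all probe sets. With the replicate block 15 genes were lower at an unadjusted p under 0.05, against 5.82%, and none passed. Counts without the block turned on LE540 2. Without LE540 2, 23 genes were lower at an unadjusted p under 0.05, against 4.42% of all probe sets, and 2 of them, Rrm1 and Ccne1, passed, against 0.419%. Without LE540 3, Gins3 passed as lower and Pola2 as higher, against 1.27% of all probe sets. Leaving out LE540 1 left 5 genes lower at an unadjusted p under 0.05, against 2.97% of all probe sets, and leaving out DMSO 2 left 3, against 3.77%. Without all arrays numbered 2 there were 19 such genes, all lower, against 3.6% of all probe sets, the median was -0.47, and none passed. When the Y-linked score was a covariate the median was -0.02. In that fit 3 genes were lower and 3 higher at an unadjusted p under 0.05, against 4.7% and 5.5% of all probe sets.

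ATRA and LE540 were also compared directly. With ATRA, 27 of 40 genes were higher by any amount than with LE540, against 43.1% of all probe sets, and the median log2 change was 0.12, against -0.03 over all probe sets. None passed, against 0.603% of all probe sets, and the lowest adjusted p was 0.248, for Ccne1. At an unadjusted p under 0.05, Gins3, Rrm1, Ccne1 and E2f1 were higher, against 4.82% of all probe sets, and none was lower by limma, against 4.72%. All ATRA arrays were above all LE540 arrays for Gins3, Ccne1 and E2f1, against 5.24% of all probe sets, and below them for Cdt1 and Ung, against 6.24%.

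Same-number arrays deviated together here too. The score difference was 0.27, -0.14 and 0.29 in pairs 1, 2 and 3, so pair 2 ran the other way. In all 3 pairs 10 of 40 genes were higher with ATRA, against 13.5% of all probe sets. With the replicate block, 7 genes had an unadjusted p under 0.05 and were higher, against 5.93% of all probe sets: Mcm3, Gins1, Gins3, Pole, Rrm1, Ccne1 and E2f1. The lowest adjusted p there was 0.114, for Ccne1. Without LE540 2, 13 genes were higher at an unadjusted p under 0.05, against 5.02%, and Rrm1 and Ccne1 passed, against 1.19%. Without LE540 3, Pola2 passed as lower, against 1.17%, and the median was -0.01. Without all arrays numbered 2, 9 genes were higher at an unadjusted p under 0.05, against 4.46%. When the Y-linked score was a covariate Ccne1 passed as higher with ATRA, with an adjusted p of 0.0888, against 0.551% of all probe sets. Over the 20 alternatives tried, the adjusted p of Ccne1 in this comparison ran from 0.0804 to 0.525.

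**Figure D4:**
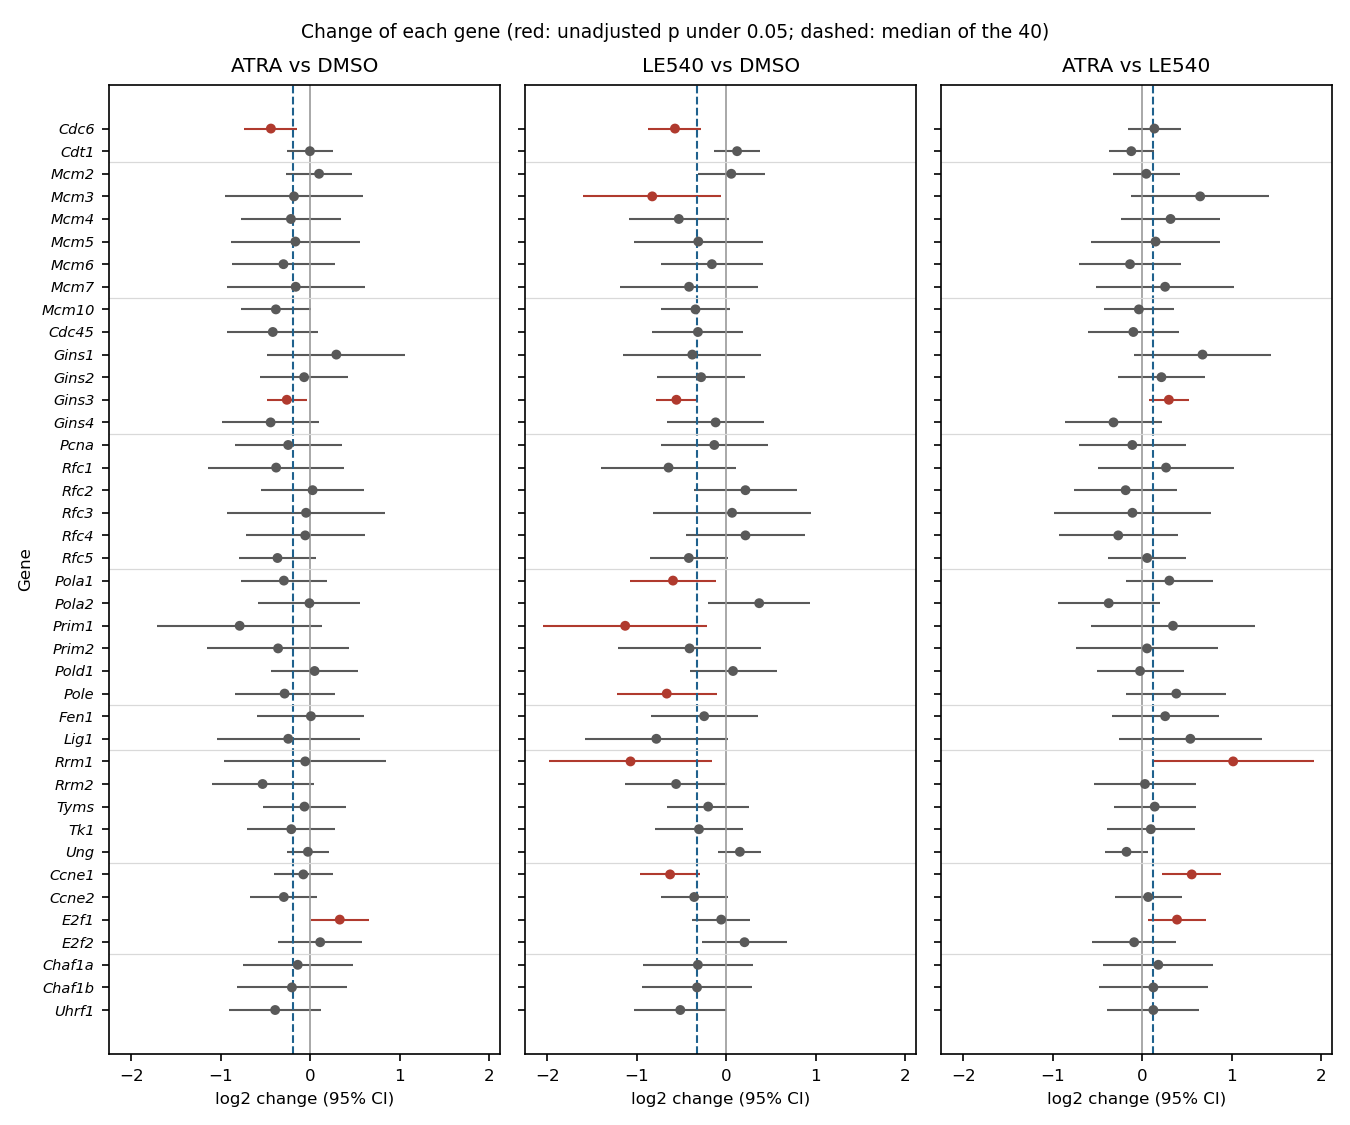
Log2 change of each of the 40 genes (rows) in the 3 comparisons, with 95% confidence intervals; red marks an unadjusted p under 0.05 and the dashed line is the median of the 40. Only Cdc6, Gins3 and E2f1 are red in the first panel, and the 8 red genes of the second panel all lie left of 0.

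The promoters of the set were read from RefSeq (GRCm38.p6), 250 bases before to 50 after each start, to show what the genes share outside expression. Of the 40 genes, 32 had a promoter there, 38 promoters in all. E2F motifs were searched as TTTCCCGC, TTTGGCGC, TTTCGCGC and TTTGCCGC, and the NF-Y motif as CCAAT, all on both strands. The motifs can overlap at their ends and were counted separately. An E2F match was found in 13 of the 32 genes, or 40.6%, against 3.48% of 15560 measured genes with a promoter. By promoter the shares were 34.2% of the set's, against 2.26% of 32851 in all. CCAAT was found in 18 of 32 genes, or 56.2%, against 41.7% of the measured genes, and in 55.3% of the set's promoters, against 37.4% of all. A match describes the letters only. The 13 genes with an E2F match had a median log2 change of -0.18 in ATRA vs DMSO, -0.42 in LE540 vs DMSO and 0.13 in ATRA vs LE540. The 19 genes whose promoters hold none had -0.14, -0.32 and 0.09. Both subsets thus had medians of the same sign in each comparison. The promoters shown with the genes below belong to those with the largest changes that hold a match.

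Cdc6 and Cdt1, which load the helicase together with the origin recognition complex, did not run together. Cdc6 measured 103, 119 and 86.8 on the ATRA arrays, 96.5, 95.01 and 88.3 on the LE540 arrays, and 131, 153 and 133 on the DMSO arrays. All 6 treated arrays lay below all 3 DMSO arrays, and the treated groups overlapped each other. The change of Cdc6 was -0.44 ± 0.13 in ATRA vs DMSO (SE, adjusted p = 0.787) and -0.57 ± 0.13 in LE540 vs DMSO (adjusted p = 0.369). Cdt1 measured 107, 125 and 125 with ATRA, 128, 127 and 132 with LE540, and 108, 115 and 134 with DMSO. ATRA and LE540 each overlapped DMSO for Cdt1, while every ATRA array lay below every LE540 array, by -0.12 ± 0.11 (adjusted p = 0.774).

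The 6 subunits of the MCM ring gave medians of -0.17 in ATRA vs DMSO, with 5 of 6 lower, and -0.37 in LE540 vs DMSO, again with 5 of 6 lower. Of all probe sets, 51.5% and 45.3% were lower. Mcm2 was the exception of the ring in both comparisons, at 0.10 ± 0.16 and 0.05 ± 0.16. Mcm5 measured 333, 363 and 261 with ATRA, 252, 489 and 189 with LE540, and 310, 432 and 333 with DMSO. LE540 2 was the highest of the 9 for Mcm5 and LE540 3 the lowest, and all groups overlapped. Its change was -0.17 ± 0.32 in ATRA vs DMSO (adjusted p = 0.999) and -0.31 ± 0.32 in LE540 vs DMSO (adjusted p = 0.772).

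Mcm3, singled out after its values were seen, had the largest LE540 difference of the ring. It measured 136, 240 and 176 with ATRA, 74.3, 185 and 109 with LE540, and 195, 259 and 165 with DMSO. LE540 1 and LE540 3 were the lowest of the 9, and LE540 2 lay above DMSO 3. The change was -0.83 ± 0.34 in LE540 vs DMSO (adjusted p = 0.549) and 0.65 ± 0.34 in ATRA vs LE540 (adjusted p = 0.606). The Mcm3 promoter holds CCAAT matches 117, 72 and 32 bases before the start, in capitals in the first sequence, which ends at the start. The second sequence is a stretch of 30 bases after the start with E2F matches at bases 20 and 39, in capitals. The first lies at chr1:20820313-20820439 and the second at chr1:20820266-20820295, both on the minus strand.
Mcm3 before the start: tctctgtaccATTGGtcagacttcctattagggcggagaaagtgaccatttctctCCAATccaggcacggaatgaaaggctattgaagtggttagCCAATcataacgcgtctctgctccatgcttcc
Mcm3 after the start: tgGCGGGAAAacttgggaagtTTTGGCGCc

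Of the helicase activators, Cdc45 and the GINS subunits form the active helicase with the MCM ring, and Mcm10 acts in its activation. In this group 5 of 6 were lower with ATRA than with DMSO (median -0.32), and 6 of 6 were lower with LE540 (median -0.33). Of all probe sets, 51.5% and 45.3% were lower. Cdc45 measured 186, 259 and 191 with ATRA, 224, 309 and 165 with LE540, and 308, 269 and 266 with DMSO. All ATRA arrays lay below all DMSO arrays, and LE540 2 exceeded all of them. The change of Cdc45 was -0.42 ± 0.22 in ATRA vs DMSO (adjusted p = 0.999) and -0.32 ± 0.22 in LE540 vs DMSO (adjusted p = 0.68).

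Gins3, a GINS subunit singled out after its values were seen, was the 1 gene of the set whose 3 groups were fully ordered. It measured 257, 217 and 234 with ATRA, 196, 179 and 201 with LE540, and 273, 283 and 293 with DMSO. LE540 arrays were lowest, ATRA arrays lay between, and DMSO arrays were highest, with no overlap, and ATRA 2 and LE540 2 were the lowest arrays of their groups. The change was -0.26 ± 0.10 in ATRA vs DMSO (adjusted p = 0.989). In LE540 vs DMSO it was -0.56 ± 0.10 (adjusted p = 0.227), and without LE540 3 the adjusted p was 0.0868, within a range of 0.0868 to 0.672 over the 20 alternatives. In ATRA vs LE540 it was 0.30 ± 0.10 (adjusted p = 0.374).

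The other GINS subunits differed from Gins3. Gins1 measured 278, 297 and 228 with ATRA, 176, 258 and 102 with LE540, and 184, 317 and 176 with DMSO. ATRA and LE540 overlapped, LE540 3 was the lowest array, and the change in ATRA vs LE540 was 0.67 ± 0.34 (adjusted p = 0.587). Gins1 was the 1 helicase activator higher with ATRA than with DMSO, by 0.29 ± 0.34 (adjusted p = 0.999). Gins4 measured 762, 1253 and 1011 with ATRA, 916, 1690 and 1221 with LE540, and 1285, 1285 and 1472 with DMSO. The ATRA arrays of Gins4 lay below the DMSO arrays, by -0.44 ± 0.24 (adjusted p = 0.999), and the LE540 arrays spanned them, at -0.12 ± 0.24 (adjusted p = 0.897).

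**Figure D5:**
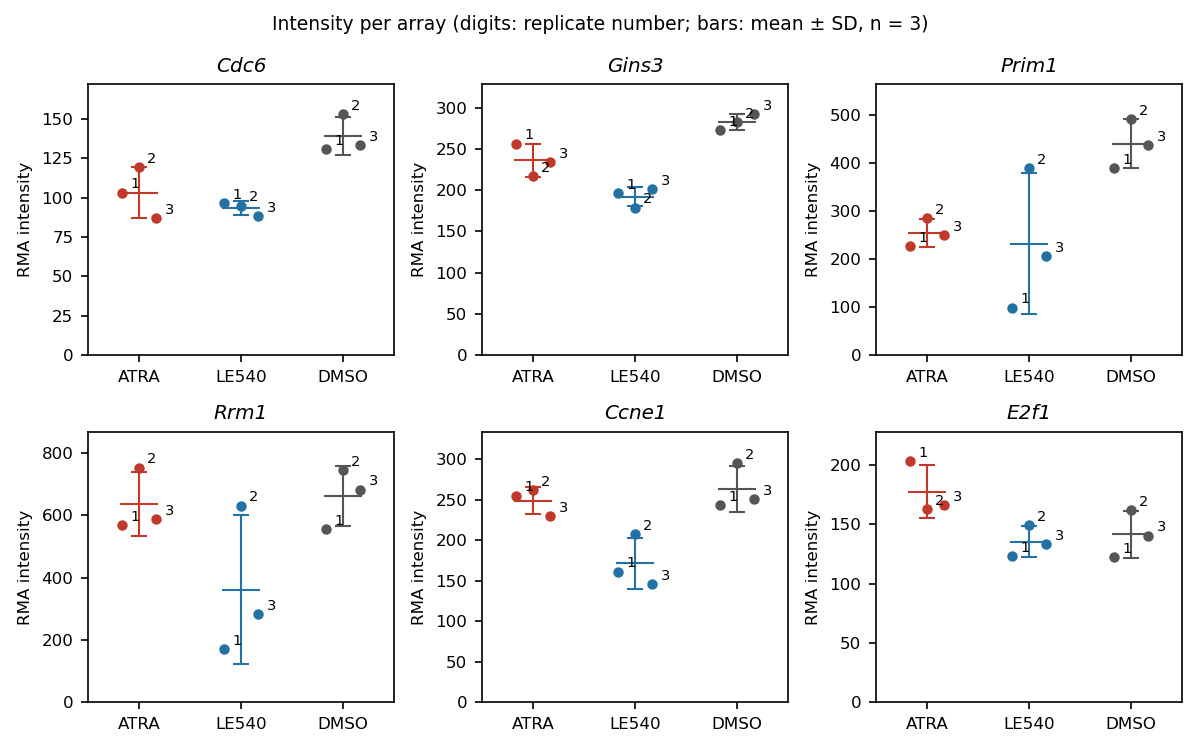
RMA intensity (linear axis from 0) of 6 genes on each array; digits are replicate numbers and bars are the group mean ± SD of 3 arrays. Cdc6 and Gins3 have no treated array among the DMSO arrays, and LE540 2 stands away from LE540 1 and LE540 3 for Prim1 and Rrm1.

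Pcna is the sliding clamp that tethers polymerases to DNA, and Rfc1 to Rfc5 form the loader that places it. The group had a median of -0.15 with 5 of 6 lower in ATRA vs DMSO, and -0.04 with 3 of 6 lower in LE540 vs DMSO. Of all probe sets, 51.5% and 45.3% were lower. Pcna measured 2873, 3947 and 2771 with ATRA, 2754, 5157 and 2798 with LE540, and 3439, 4629 and 3304 with DMSO. Within each group array 2 was the highest for Pcna, all groups overlapped, and ATRA was lower in 3 of 3 pairs. The change was -0.25 ± 0.26 in ATRA vs DMSO (adjusted p = 0.999) and -0.13 ± 0.26 in LE540 vs DMSO (adjusted p = 0.896). The second Pcna probe set gave -0.25 and -0.15.

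Rfc4, a small loader subunit, measured 203, 295 and 208 with ATRA, 180, 430 and 282 with LE540, and 214, 277 and 237 with DMSO. LE540 held both the lowest and the highest array, and all groups overlapped. The change of Rfc4 was -0.06 ± 0.29 in ATRA vs DMSO (adjusted p = 0.999) and 0.21 ± 0.29 in LE540 vs DMSO (adjusted p = 0.842). Rfc1, the large subunit, had the largest loader differences from DMSO, at -0.38 ± 0.33 in ATRA vs DMSO and -0.65 ± 0.33 in LE540 vs DMSO, with no overlap in either (adjusted p = 0.999 and 0.603). For Rfc1, LE540 1 lay far below the other LE540 arrays, at 195. Over the 20 alternatives the LE540 vs DMSO change of Rfc1 ran from -0.92 to -0.19.

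Primase makes the RNA primers, and its catalytic subunit Prim1 had the largest difference of the set from DMSO with either compound. It measured 227, 286 and 251 with ATRA, 99.3, 390 and 207 with LE540, and 391, 492 and 438 with DMSO. Every treated array lay below every DMSO array, though LE540 2 came within about 1 unit of DMSO 1. The change was -0.79 ± 0.40 in ATRA vs DMSO (adjusted p = 0.999) and -1.13 ± 0.40 in LE540 vs DMSO (adjusted p = 0.541). Its 95% confidence interval ran from -1.71 to 0.13 with ATRA and from -2.05 to -0.21 with LE540. The 60 bases before the Prim1 start (chr10:128015155-128015214, plus strand) hold 1 CCAAT match, in capitals, 9 bases before the start.
Prim1: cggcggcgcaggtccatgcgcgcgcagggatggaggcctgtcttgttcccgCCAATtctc

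Prim2, the regulatory subunit, was at -0.36 ± 0.35 in ATRA vs DMSO and -0.41 ± 0.35 in LE540 vs DMSO. The polymerase alpha subunits went separate ways with LE540: the catalytic Pola1 was at -0.60 ± 0.21 (adjusted p = 0.541), with no overlap. The accessory Pola2 measured 175, 173 and 154 with ATRA, 272, 271 and 138 with LE540, and 172, 191 and 144 with DMSO. LE540 1 and LE540 2 were the 2 highest arrays for Pola2 and LE540 3 the lowest. Its change was 0.37 ± 0.25 in LE540 vs DMSO (adjusted p = 0.675) and -0.38 ± 0.25 in ATRA vs LE540 (adjusted p = 0.692). Without LE540 3 these were 0.69 and -0.70, with adjusted p of 0.0957 and 0.0983, the lowest over the 20 alternatives, whose highest were 0.93 and 0.896.

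Pole, the catalytic subunit of the leading-strand polymerase epsilon, measured 109, 119 and 99.2 with ATRA, 61.7, 112 and 84.5 with LE540, and 113, 182 and 113 with DMSO. LE540 arrays lay below DMSO arrays, LE540 2 by about 1 unit, and LE540 1 was below that array's lower quartile of intensity. DMSO 2 stood far above the other arrays. The change of Pole was -0.29 ± 0.25 in ATRA vs DMSO (adjusted p = 0.999) and -0.67 ± 0.25 in LE540 vs DMSO (adjusted p = 0.541). Pold1, the catalytic subunit of polymerase delta, was at 0.05 ± 0.21 and 0.07 ± 0.21 in the same comparisons.

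Fen1 trims the flaps of Okazaki fragments and Lig1 seals them. Fen1 measured 118, 172 and 114 with ATRA, 94.6, 166 and 87.1 with LE540, and 112, 149 and 137 with DMSO. The groups overlapped, and the change was 0.01 ± 0.26 in ATRA vs DMSO (adjusted p = 1) and -0.25 ± 0.26 in LE540 vs DMSO (adjusted p = 0.78). Lig1 measured 230, 304 and 304 with ATRA, 119, 354 and 165 with LE540, and 283, 402 and 313 with DMSO. LE540 1 and LE540 3 lay below all other arrays for Lig1 and LE540 2 among the DMSO arrays. The change was -0.25 ± 0.35 in ATRA vs DMSO (adjusted p = 0.999) and -0.78 ± 0.35 in LE540 vs DMSO (adjusted p = 0.565). Of 3 Lig1 promoters, 1 holds an E2F match, at base 27 after the start, shown in capitals in its 30 bases (chr7:13278846-13278875, plus strand).
Lig1 after the start: aagtgcGCGCGAAAtctgtgtggcgcgaat

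Ribonucleotide reductase makes deoxyribonucleotides from a large subunit, Rrm1, and a small one, Rrm2, and the pair did not run alike. Rrm1 measured 568, 753 and 586 with ATRA, 171, 631 and 283 with LE540, and 556, 744 and 682 with DMSO. LE540 1 and LE540 3 lay far below the other 7 arrays, LE540 2 lay among them, and ATRA and DMSO overlapped. The change was -0.06 ± 0.40 in ATRA vs DMSO (adjusted p = 0.999). In LE540 vs DMSO it was -1.07 ± 0.40 (adjusted p = 0.541), and without LE540 2 it was -1.58 with an adjusted p of 0.0765, within a range of 0.0765 to 0.907 over the 20 alternatives. In ATRA vs LE540 it was 1.01 ± 0.40 (adjusted p = 0.465), and without LE540 2 it was 1.52 with an adjusted p of 0.05, within a range of 0.05 to 0.748. The 101 bases before the Rrm1 start (chr7:102441594-102441694, plus strand) hold CCAAT matches 91 and 45 bases before the start, in capitals.
Rrm1: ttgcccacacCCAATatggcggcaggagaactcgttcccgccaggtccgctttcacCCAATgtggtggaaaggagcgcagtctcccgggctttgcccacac

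Rrm2 measured 244, 353 and 234 with ATRA, 242, 347 and 227 with LE540, and 325, 540 and 349 with DMSO. The treated groups were nearly superimposed, array 2 was the highest in each group, and each ATRA and each LE540 array lay below the DMSO array of its number. The change of Rrm2 was -0.53 ± 0.25 in ATRA vs DMSO (adjusted p = 0.999) and -0.56 ± 0.25 in LE540 vs DMSO (adjusted p = 0.565). With the replicate block its SE was 0.09 in ATRA vs DMSO (adjusted p = 0.242) and 0.09 in LE540 vs DMSO (adjusted p = 0.212).

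Tyms makes thymidylate. It measured 323, 446 and 446 with ATRA, 401, 429 and 281 with LE540, and 355, 482 and 431 with DMSO. All groups overlapped, and the change of Tyms was -0.07 ± 0.20 in ATRA vs DMSO (adjusted p = 0.999) and -0.20 ± 0.20 in LE540 vs DMSO (adjusted p = 0.77). Tk1, the thymidine salvage kinase, was at -0.21 ± 0.22 and -0.31 ± 0.22 in these comparisons. Its 2 probe sets had opposite signs in ATRA vs LE540, at 0.09 ± 0.22 and -0.13 ± 0.22. Ung, which removes uracil from DNA, was at -0.03 ± 0.11 and 0.15 ± 0.11 against DMSO.

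Cyclin E, the partner of Cdk2 at the entry to S phase, is made from Ccne1 and Ccne2. Ccne1 measured 255, 262 and 230 with ATRA, 161, 207 and 146 with LE540, and 243, 296 and 251 with DMSO. Every LE540 array lay below every ATRA and every DMSO array, and ATRA and DMSO overlapped. The change was -0.08 ± 0.15 in ATRA vs DMSO (adjusted p = 0.999) and 0.55 ± 0.15 in ATRA vs LE540 (adjusted p = 0.248). In LE540 vs DMSO it was -0.63 ± 0.15 (adjusted p = 0.37), and without LE540 2 it was -0.77 with an adjusted p of 0.094, within a range of 0.094 to 0.789 over the 20 alternatives. Ccne2 was at -0.30 ± 0.16 with ATRA and -0.36 ± 0.16 with LE540 against DMSO, the LE540 arrays all below (adjusted p = 0.999 and 0.569).

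E2f1, an activating E2F factor, had the largest positive change of the set with ATRA. It measured 203, 163 and 166 with ATRA, 123, 150 and 134 with LE540, and 122, 162 and 141 with DMSO. All ATRA arrays were the highest of the 9, ATRA 2 by about 1 unit over DMSO 2, and LE540 and DMSO overlapped. The change of E2f1 was 0.33 ± 0.14 in ATRA vs DMSO (adjusted p = 0.999) and -0.06 ± 0.14 in LE540 vs DMSO (adjusted p = 0.922). In ATRA vs LE540 it was 0.39 ± 0.14 (adjusted p = 0.426). E2f2, of the same activator class, was at 0.11 ± 0.21 and 0.20 ± 0.21 against DMSO.

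Chaf1a and Chaf1b belong to the chromatin assembly factor that places histones behind the fork, and Uhrf1 helps to copy DNA methylation to the new strand. All 3 were lower in both comparisons with DMSO and higher in ATRA vs LE540. Of all probe sets, 51.5% were lower with ATRA and 45.3% with LE540, and 43.1% were higher in ATRA vs LE540. Chaf1b measured 141, 168 and 110 with ATRA, 99.3, 193 and 105 with LE540, and 141, 192 and 147 with DMSO. The groups overlapped, and LE540 2 matched DMSO 2 within 1 unit. The change of Chaf1b was -0.21 ± 0.27 in ATRA vs DMSO (adjusted p = 0.999) and -0.33 ± 0.27 in LE540 vs DMSO (adjusted p = 0.719). Uhrf1 measured 334, 456 and 261 with ATRA, 337, 381 and 240 with LE540, and 420, 494 and 433 with DMSO. All LE540 arrays lay below the DMSO arrays for Uhrf1, and ATRA 2 lay among them. Its change was -0.39 ± 0.23 in ATRA vs DMSO (adjusted p = 0.999) and -0.51 ± 0.23 in LE540 vs DMSO (adjusted p = 0.564).

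Other genes of the cell cycle, in 5 lists, were counted beside the set, and none of their 88 measured genes passed in any comparison by limma. At an unadjusted p under 0.05, 7 were lower and 1 higher in ATRA vs DMSO, against 2.36% and 2.34% of all probe sets. In LE540 vs DMSO 25 were lower and 3 higher, against 4.33% and 4.47%. In ATRA vs LE540 8 were higher and 4 lower, against 4.82% and 4.72%. Over all probe sets 51.5% were lower with ATRA and 45.3% with LE540, the shares to set beside each list here. Of 20 origin licensing and checkpoint partners, 16 were lower with ATRA (median -0.25) and 14 with LE540 (median -0.23). The lowest of these partners with ATRA was Clspn, the checkpoint mediator claspin, at -0.65 ± 0.24 (adjusted p = 0.986). With LE540 it was Ticrr, which helps to assemble the helicase, at -0.76 ± 0.19 (adjusted p = 0.393). The highest were Orc5 at 0.26 ± 0.27 with ATRA and Rpa2 at 0.27 ± 0.28 with LE540 (adjusted p = 0.999 and 0.775). Of 18 other polymerase, ligase and nucleotide genes, 15 were lower with ATRA (median -0.18) and 13 with LE540 (median -0.16). Dnmt1, which copies DNA methylation, was the lowest of these with LE540, at -0.65 ± 0.19 with no overlap (adjusted p = 0.497). Rnaseh2a was the highest, at 0.45 ± 0.30 (adjusted p = 0.667). All LE540 arrays lay above all DMSO arrays for 2 of the 18, against 6.74% of all probe sets, and below them for 2, against 5.86%.

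Of 20 G1 control genes, 14 were lower with ATRA (median -0.11) and 13 with LE540 (median -0.10). Of all probe sets, 51.5% and 45.3% were lower. Rbl1, a relative of the retinoblastoma protein, was the lowest with ATRA, at -0.76 ± 0.27, and Cdk4, the cyclin D partner, the highest, at 0.43 ± 0.17 (adjusted p = 0.97 and 0.999). With LE540 the extremes were the repressor E2f8, at -1.10 ± 0.36, and the growth regulator Myc, at 0.97 ± 0.41 (adjusted p = 0.529 and 0.558). E2f8 measured 53.6 on LE540 1, below that array's lower quartile of intensity of 63. The 6 measured CDK inhibitors had medians of 0.05 with ATRA and 0.06 with LE540. Cdkn1c, one of them, was highest in both, at 0.26 ± 0.15 with ATRA and 0.52 ± 0.15 with LE540, with no overlap in either (adjusted p = 0.999 and 0.461). In ATRA vs LE540, 13 of 20 origin partners (median 0.08) and 7 of 18 polymerase and nucleotide genes (median -0.04) were higher. So were 10 of 20 G1 control genes (median 0.01) and 3 of 6 CDK inhibitors (median 0.00), against 43.1% of all probe sets. Pole4 was the lowest of the polymerase list there, at -0.80 ± 0.22 with no overlap (adjusted p = 0.264).

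The 24 mitosis genes stood further from DMSO than the replication genes. With ATRA 23 of 24 were lower, against 51.5% of all probe sets, with a median of -0.34. With LE540 24 of 24 were lower, against 45.3% of all probe sets, with a median of -0.75, and 18 of them had an unadjusted p under 0.05, against 4.33%. In ATRA vs LE540 24 of 24 were higher, against 43.1% of all probe sets, with a median of 0.50. Their score was -0.13, 0.21 and 0.12 on the ATRA arrays, -0.998, 0.20 and -0.56 on the LE540 arrays, and 0.23, 0.45 and 0.49 on the DMSO arrays. Every treated array lay below every DMSO array, though ATRA 2 at 0.21 and LE540 2 at 0.20 came close to DMSO 1 at 0.23. As for the replication genes, LE540 1 and LE540 3 were the lowest. The Y-linked covariate and the leaving out of arrays were not summarised for this list. The lowest single gene with LE540 was the spindle checkpoint kinase Bub1, at -1.71 ± 0.56 (adjusted p = 0.529). On LE540 1 Bub1 measured 46.4, below that array's lower quartile of intensity of 63. The difference between this list and the replication genes was not tested.

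Markers of other cell types that the explants could hold moved between arrays as well. The summed intensity of 10 endothelial and endocardial markers was 2098 to 5419 on ATRA arrays, 1372 to 2965 on LE540 arrays and 1378 to 2985 on DMSO arrays. That of 10 cardiomyocyte markers was 12477 to 21496 with ATRA, 12921 to 21973 with LE540 and 12986 to 26088 with DMSO. The 10 macrophage markers summed to 1560 to 3371 with ATRA, 2385 to 3526 with LE540 and 1887 to 4129 with DMSO. Those 3 sums overlapped between all groups. The 6 smooth muscle markers summed to 3174 to 7023 with ATRA, 1717 to 2733 with LE540 and 1833 to 3726 with DMSO, and there ATRA lay above LE540 on every array. The 5 erythroid markers summed to 1047 to 1362 with ATRA, 1078 to 1140 with LE540 and 1119 to 1226 with DMSO. Relative to DMSO, 10 of 10 endothelial and 6 of 6 smooth muscle markers were higher with ATRA, against 48.5% of all probe sets. So were 8 of 10 valve interstitial markers, with a median of 0.38, and 5 of them without overlap, against 4.97% of all probe sets. Lower with ATRA were 9 of 10 cardiomyocyte markers, against 51.5% of all probe sets, with a median of -0.29. With LE540, 9 of 10 valve interstitial markers were lower, against 45.3%. The part of these differences in the values of the replication genes was not tested.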

How the data were processed

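RNA of 9 pooled explant samples (3 ATRA, 3 LE540, 3 DMSO) was measured on Affymetrix arrays. The deposited intensity values were made by the authors with Affymetrix Expression Console 1.1 and RMA (background correction, quantile normalization and summary of probes), per the submitters' processing notes; genome build and annotation are not given in the sources used here. Arrays have no depth in counts, so the number of arrays limits precision.

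From these values log2 was taken. Genes were named through the platform annotation by probe sets with 1 symbol, and of several probe sets of a gene the brightest stood for it. Levels of different probe sets are not comparable. The test was that of limma 3.58.1 (R 4.3.3), in a model of 3 groups over 9 arrays, on 23397 probe sets with a listed gene, with the series' own threshold of an adjusted p under 0.1; its second one, a fold over 2, did not come into play because no gene of the set passed. The code was tested on simulated data. The labels call the samples biological replicates, and the p-values measure the spread between the pools.

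The members, gene lists and the rule for named genes were chosen with earlier results of these data known. Values on every array are given for 16 genes picked by role and for those with the 2 largest changes each way in a comparison; genes outside the rule are marked. Of each pathway list the largest changes each way may be named. Listed genes with no such probe set were not analysed here.

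Same-number arrays were checked by correlating their deviations from group means over all probe sets. In ATRA vs DMSO r was 0.143, 0.342 and 0.22, and in ATRA vs LE540 it was 0.261, 0.282 and 0.269, all over 0.1. Differences by pair and a fit with the block are therefore given for these comparisons, a choice from the data and not from a label. The main test ignores the pairing: SE and p-values come from the fit without the block unless another fit is named. In LE540 vs DMSO r was 0.00946, 0.215 and 0.126, and the numbers were taken not to pair. That choice too came from the data, so values by pair and with the block are given for this comparison as well. Alternatives were a replicate block, arrays of both groups only, other scalings, other filters, array weights, covariates and leaving out arrays.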

Additional observations from a re-analysis of the deposited data

How the results depend on the processing

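No replication gene passed in any comparison with all 9 arrays and no covariate. Of the set only Pole was below an array's lower quartile of intensity, on 1 array. Directions held under quantile normalization (1 exception, Pola2 in ATRA vs DMSO, at 0.00), median centring and the filters. They turned most often under the Y-linked covariate and when single LE540 arrays were left out; the cause was not tested. Over the 20 genes given per array by the rule, without Mcm3 and Gins3, 367, 380 and 375 of 400 values kept direction and side of the threshold in ATRA vs DMSO, in LE540 vs DMSO and in ATRA vs LE540 (in that order). Outside these, Gins3 passed in LE540 vs DMSO without LE540 3 (adjusted p = 0.0868).

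ATRA vs DMSO. Probe sets that passed (19) numbered 9 with only the arrays of both groups, 71 with array weights, 7 with the Y-linked covariate, 5 with the cardiomyocyte score as covariate and 4 to 22 without single arrays. Genes of the set at an unadjusted p under 0.05 (3) numbered 6, 7 and 5 under the first 3 of these, 6 without the arrays numbered 2 (chosen after seeing the data) and 1 to 7 without single arrays (7 without ATRA 2 or LE540 2, 6 without LE540 1, 2 without DMSO 2, 1 without ATRA 3 or DMSO 3). Of all probe sets, 3.76%, 4.24% and 3.05% were lower and 2.93%, 3.86% and 3.26% higher at that p in those 3 fits. Without the arrays numbered 2 the shares were 2.04% and 2.12%, and without single arrays 1.5% to 3.26% and 1.5% to 2.77%. The median of the set ran from -0.27 to -0.04 without single arrays and was 0.18 with the Y-linked covariate. That covariate turned Mcm5 to 0.45, Pcna to 0.32, Rfc4 to 0.45, Pola2 to 0.32, Pole to 0.17, Lig1 to 0.39, Rrm1 to 0.61, Tyms to 0.17, Ccne1 to 0.18 and Chaf1b to 0.33. Array weights turned Cdt1 to 0.01, Fen1 to -0.02 and Tyms to 0.03, the cardiomyocyte covariate Rfc4 to 0.04 and Rrm1 to 0.02, and leaving out the arrays numbered 2 Pola2 to 0.06 and Fen1 to -0.10. Without single arrays, Cdt1 ran from -0.07 to 0.08, Rfc4 from -0.23 to 0.04, Rrm1 from -0.19 to 0.03, Tyms from -0.19 to 0.09, Fen1 from -0.18 to 0.12, Pola2 from -0.12 to 0.08 and Ccne1 from -0.13 to 0.01.

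LE540 vs DMSO. Probe sets that passed (7) numbered 1 with only the arrays of both groups, 0 with quantile normalization, with unannotated probe sets included and with the cardiomyocyte covariate, and 0 to 297 without single arrays. Genes at an unadjusted p under 0.05 (8) numbered 19 without the arrays numbered 2 and 3 to 23 without single arrays. Of all probe sets, 3.6% were lower and 3.5% higher at that p without the arrays numbered 2. Without single arrays 2.5% to 7.69% were lower and 2.24% to 7.42% higher. Both shares were highest without LE540 3, where 5 genes of the set were lower and 1 higher. Without single arrays, genes that passed numbered 0 to 2 and the median ran from -0.54 to -0.20. With the Y-linked covariate 3 genes were lower and 3 higher at that p, against 4.7% and 5.5% of all probe sets. The median was then -0.02, and Mcm5 turned to 0.11, Gins1 to 0.08, Gins4 to 0.08, Pcna to 0.26, Fen1 to 0.08, E2f1 to 0.02 and Chaf1b to 0.04. Array weights turned Gins4 to 0.00, Pcna to 0.05 and E2f1 to 0.01. Without single arrays, Gins4 ran from -0.35 to 0.10, Pcna from -0.43 to 0.02, E2f1 from -0.16 to 0.04 and Rfc4 from -0.10 to 0.53.

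ATRA vs LE540. Probe sets that passed (141) numbered 25 with only the arrays of both groups, 40 with the cardiomyocyte covariate and 54 to 278 without single arrays. Genes at an unadjusted p under 0.05 (4) numbered 2 with array weights, 10 with the Y-linked covariate (1 passed), 2 with the cardiomyocyte covariate, 9 without the arrays numbered 2, and 1 to 13 without single arrays (1 without ATRA 1); 0 to 2 then passed and the median ran from -0.01 to 0.28. Under array weights, the Y-linked and the cardiomyocyte covariate, 4.13%, 4.77% and 4.14% of all probe sets were lower at that p. Higher at that p were 4.39%, 4.82% and 4.54%. Without the arrays numbered 2 the shares were 4.78% and 4.46%, and without single arrays 3.36% to 7.15% and 3.72% to 6.83%. Array weights turned Mcm5 to -0.04, Rrm2 to -0.07 and Chaf1b to -0.10, the Y-linked covariate Cdc45 to 0.01 and Pcna to 0.06, the cardiomyocyte covariate Cdc45 to 0.01, and leaving out the arrays numbered 2 Pcna to 0.02. Without single arrays, Rrm2 ran from -0.16 to 0.22, Chaf1b from -0.05 to 0.43, Uhrf1 from -0.09 to 0.32, Prim1 from -0.16 to 0.82, Cdc45 from -0.33 to 0.13, Pcna from -0.27 to 0.18, Rfc4 from -0.59 to 0.04, Mcm5 from -0.15 to 0.54 and Tyms from -0.05 to 0.29.

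With the replicate block, probe sets that passed numbered 29 in ATRA vs DMSO, 1 in LE540 vs DMSO and 221 in ATRA vs LE540. Genes of the set at an unadjusted p under 0.05 numbered 9, 15 and 7, the 9 and 15 all lower and the 7 all higher. In the same directions stood 3.4%, 5.82% and 5.93% of all probe sets. In LE540 vs DMSO, where pairing was not settled, 1 of 3 arrays correlated best with its own number. The block changed no call of a gene of the set.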
